A study of Mus musculus with 2 samples.

Results

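The Mir181 family was followed in mouse fetal liver as 6 microRNA (miRNA) genes out of the 1973 listed in each library. They were chosen by name, as the rows whose gene identifier carries the name Mir181a-1, Mir181b-1, Mir181a-2, Mir181b-2, Mir181c or Mir181d in the GENCODE annotation, so the rule uses no measured value, although the family was picked for study with earlier results of these data known. All 6 had a row and were read in both libraries. The series holds 1 group, the healthy liver of B6NCrl embryos at embryonic day 16.5, with 2 biological replicates and no treatment or mutant. Each replicate is a pool of livers from male and female embryos, of 41 embryos in replicate 2 and of a number that the labels leave out in replicate 1. Sense-strand counts in miRNA genes totalled 5930074 in replicate 1 and 5102289 in replicate 2. Pooling hides the spread between embryos, and whole liver does not show which cell a read came from.

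MicroRNAs are cut from hairpin precursors, and the short mature strand then guides a repressor complex to messenger RNAs that pair with its seed, bases 2 to 8. Either side of a hairpin, the 5′ arm (5p) or the 3′ arm (3p), can give a mature strand, and in the miR-181 family the 5p arm is the usual guide. The family is best known in mouse for lymphocyte development: miR-181a is abundant in the thymus, where it sets the sensitivity of T cell receptor signalling, and it favours the B lineage when raised in blood progenitors. In mice, loss of the Mir181a-1 and Mir181b-1 cluster impairs natural killer T cells. Fetal liver is a site of blood formation, B cells included, beside its developing hepatocytes.

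The 5p arms are shown first because they carry the seed that defines the family, which is in capitals. The sequences are those of RefSeq on build GRCm38.p6, 5′ to 3′.
miR-181a-5p, from Mir181a-1 and Mir181a-2: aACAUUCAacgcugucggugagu
miR-181b-5p, from Mir181b-1 and Mir181b-2: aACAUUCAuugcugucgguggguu
miR-181c-5p, from Mir181c: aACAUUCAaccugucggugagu
miR-181d-5p, from Mir181d: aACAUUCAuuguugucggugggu

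All 6 genes shared the 5p seed. Of the 1973 listed genes, 916 had a mature sequence in the RefSeq table, and 0 other mature sequences among them held this seed. Outside the seed, with positions counted from 1 at the 5′ end, miR-181d-5p differed from miR-181b-5p by the substitution C12U and by lacking the last base. The alignment of miR-181c-5p with miR-181a-5p had 22 identical bases, 0 substitutions and 1 base of miR-181a-5p missing from miR-181c-5p. Between miR-181a-5p and miR-181b-5p there were 3 substitutions, A9U, C10U and A21G. The 5p arms of Mir181c and Mir181d were found letter for letter in no other listed gene of the table, whereas miR-181a-5p and miR-181b-5p each stood in both of their copies.

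The 3p arms follow because they are what separates the copies, again with bases 2 to 8 in capitals.
miR-181a-1-3p, from Mir181a-1: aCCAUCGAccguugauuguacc
miR-181a-2-3p, from Mir181a-2: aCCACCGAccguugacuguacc
miR-181b-1-3p, from Mir181b-1: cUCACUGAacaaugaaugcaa
miR-181b-2-3p, from Mir181b-2: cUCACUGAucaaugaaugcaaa
miR-181c-3p, from Mir181c: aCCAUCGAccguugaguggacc
miR-181d-3p, from Mir181d: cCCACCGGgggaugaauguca

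Unlike the 5p arms, the 3p arms fell into 4 seeds. The 3p arms of Mir181a-1 and Mir181c shared 1 seed and those of Mir181b-1 and Mir181b-2 shared another, while those of Mir181a-2 and Mir181d each had a seed of their own. The arms miR-181a-1-3p and miR-181a-2-3p differed by U5C, which lies in the seed, and by U16C. The arms miR-181b-1-3p and miR-181b-2-3p differed by A9U and by 1 base more at the end of the second. Each of the 6 was found in its own gene alone.

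This bears on what the counts can hold. Reads that match several places are tallied apart and belong to no gene in these tables, and they made up 28.1% of the reads of replicate 1 and 28.2% of those of replicate 2. The longest run shared by the Mir181a-1 and Mir181a-2 hairpins was 28 bases, gaacauucaacgcugucggugaguuugg, which holds all of miR-181a-5p. For Mir181b-1 and Mir181b-2 it was 26 bases, ucaacauucauugcugucgguggguu, which holds all of miR-181b-5p. The labels give a size range below 30 bases, so a read of these 5p arms can lie wholly within the shared run. Between the Mir181d hairpin and those of the 4 duplicated genes the longest run was 13 bases, shared with Mir181b-1, and runs in the Mir181c hairpin were not analysed here. Of the 18-base words of the hairpins, 18.6% in Mir181a-2, 15.7% in Mir181a-1, 14.3% in Mir181b-1 and 12.5% in Mir181b-2 occurred in another listed hairpin, each time that of the other copy, and 0% in Mir181d. How many of the multimapping reads came from miR-181a-5p or miR-181b-5p was not tested, since that tally is not split by gene. The levels of Mir181a-1, Mir181a-2, Mir181b-1 and Mir181b-2 are for this reason uncertain, and the true ones may be higher.

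**Figure D1:**
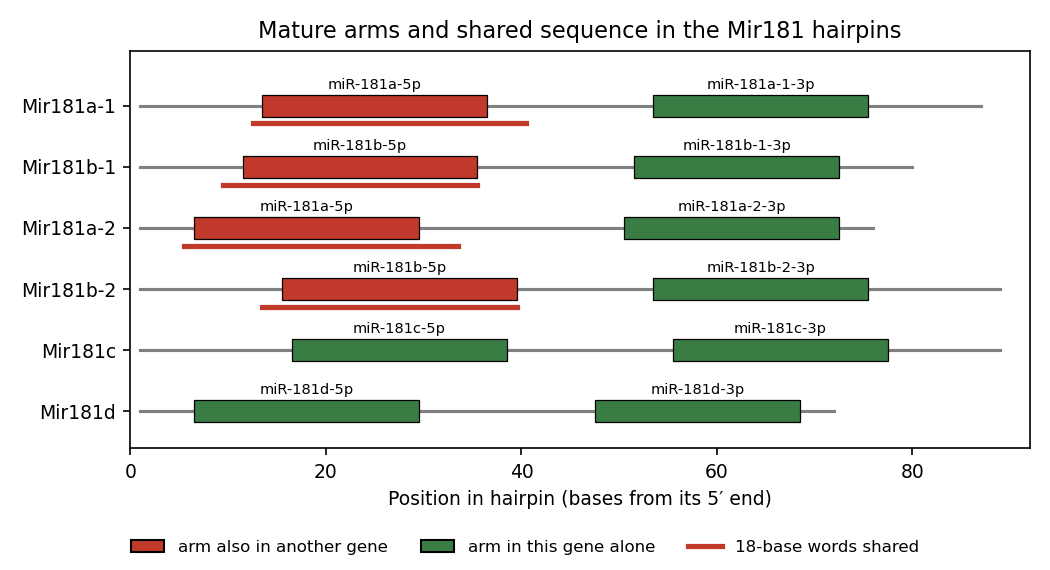
Position in the hairpin in bases from its 5′ end, with each mature arm as a box, red where the same letters stand in another listed gene and green where they do not, and a red line under the stretch covered by shared 18-base words. The 5p arms of Mir181a-1, Mir181b-1, Mir181a-2 and Mir181b-2 are red and all 3p arms are green; words were searched in 5 of the 6 hairpins, those of all members but Mir181c.

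The genes lie in 3 pairs, with coordinates on mm10 from GENCODE M21. Mir181a-1 (ENSMUSG00000065565.1; chr1:137966455-137966541) and Mir181b-1 (ENSMUSG00000065458.1; chr1:137966639-137966718) are on the plus strand, 97 bases apart. Both overlap an exon of A430106G13Rik, annotated as a long intergenic noncoding RNA, and lie in an intron of Gm4258, each on the same strand. Mir181a-2 (ENSMUSG00000065423.1; chr2:38852735-38852810) and Mir181b-2 (ENSMUSG00000065578.1; chr2:38853830-38853918) are on the plus strand, 1019 bases apart, opposite an intron of the nuclear receptor gene Nr6a1. Mir181b-2 also lies opposite an exon of Gm44144. Mir181c (ENSMUSG00000065483.1; chr8:84178873-84178961) and Mir181d (ENSMUSG00000076338.1; chr8:84178716-84178787) are on the minus strand, 85 bases apart, in an intron of Nanos3, a gene of germ cell development. The Mir181c identifier has a later version in M21 than in the count tables, so its limits may differ from those used for counting. The other strand of each member had 0 counts in both libraries, which allows up to 0.506 CPM (counts per 1000000 sense-strand counts of the library) in replicate 1 and 0.588 CPM in replicate 2, at a limit of 3 counts.

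Together the 6 genes gave a small part of the profile, similar in both libraries when taken over the library totals. They held 10710 counts in replicate 1 and 9453 in replicate 2, a mean of 0.183% ± 0.0033 of sense-strand counts (SD, n = 2). The share of replicate 1 was 0.181%, with a 95% Clopper-Pearson interval from 0.177% to 0.184%. That of replicate 2 was 0.185%, with an interval from 0.182% to 0.189% that overlapped the first. Such intervals cover counting error only, because copies made by PCR are not independent molecules. Mir122, the hepatocyte miRNA and the most abundant gene of the libraries, was at 213914 ± 906 CPM, against 1829 ± 33.0 CPM for the whole Mir181 family (SD, n = 2 each).

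Most of the family's counts came from the Mir181c and Mir181d pair on chromosome 8. This pair held 74.1% of the family in replicate 1 and 75.6% in replicate 2. The Mir181a-1 and Mir181b-1 pair held 18.4% in replicate 1 and 14.7% in replicate 2, and the Mir181a-2 and Mir181b-2 pair 7.46% in replicate 1 and 9.72% in replicate 2. The order of the pairs was the same in both libraries, and the gaps between pairs were larger than the spread between libraries. Reads of shared 5p arms can be missing from the last 4 genes and not from the first pair, so this is an order of gene counts and not of mature miRNA.

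Mir181c was the highest member, with 5301 counts or 894 CPM in replicate 1 and 4524 counts or 887 CPM in replicate 2 (mean 890 ± 5.13 CPM, rank 88 of all rows). Its mature strand has been found in mitochondria of the rat heart, as background. Mir181d followed with 2639 counts or 445 CPM in replicate 1 and 2621 counts or 514 CPM in replicate 2 (mean 479 ± 48.6 CPM, rank 118). Both were above the median of 70.4 CPM over the 397 genes that reached 1 CPM in both libraries.

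Mir181a-1, a source of the miR-181a of T cells, had 1951 counts or 329 CPM in replicate 1 and 1364 counts or 267 CPM in replicate 2 (mean 298 ± 43.6 CPM, rank 132). Mir181b-2 had 734 counts or 124 CPM in replicate 1 and 857 counts or 168 CPM in replicate 2 (mean 146 ± 31.2 CPM, rank 163). These 2 genes, from different chromosomes, made up nearly all the counts of the copies with a shared 5p arm.

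Mir181a-2 had 65 counts or 11.0 CPM in replicate 1 and 62 counts or 12.2 CPM in replicate 2 (mean 11.6 ± 0.842 CPM, rank 272). Mir181b-1 was the lowest member, with 20 counts or 3.37 CPM in replicate 1 and 25 counts or 4.90 CPM in replicate 2 (mean 4.14 ± 1.08 CPM, rank 323). From Mir181c down through Mir181d, Mir181a-1, Mir181b-2 and Mir181a-2 to Mir181b-1, the 2 libraries of each member lay above both libraries of the next. The closest neighbours were Mir181d and Mir181a-1 in replicate 1, with a fold of 1.35, and Mir181a-1 and Mir181b-2 in replicate 2, with a fold of 1.59.

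**Figure D2:**
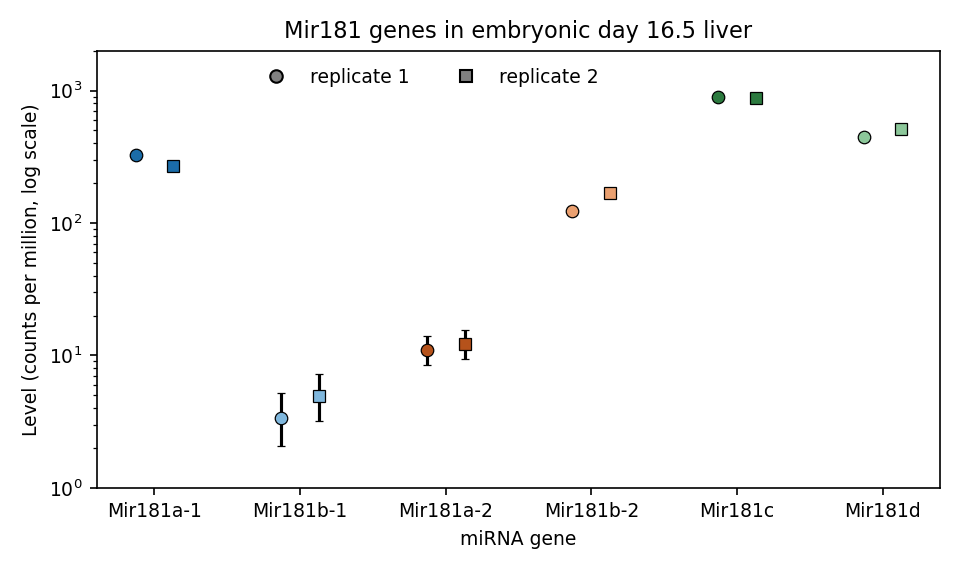
Level of each Mir181 gene in CPM on a log axis, with circles for replicate 1, squares for replicate 2 and bars for the 95% Clopper-Pearson interval of each library (hidden by the symbol where narrow). Mir181c sits near 890 CPM in both libraries, and Mir181b-1 lies at 3.37 and 4.90 CPM.

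Partners of a pair are cut from neighbouring hairpins, yet their counts were unequal, and the a and b genes came in opposite order in the duplicated pairs. Mir181a-1 exceeded Mir181b-1 by 97.6-fold in replicate 1 (95% interval 63.0 to 160.1) and by 54.6-fold in replicate 2 (36.8 to 84.6). Mir181b-2 exceeded Mir181a-2 by 11.3-fold in replicate 1 (8.75 to 14.8) and by 13.8-fold in replicate 2 (10.7 to 18.2). In the unduplicated pair, Mir181c exceeded Mir181d by 2.01-fold in replicate 1 (1.92 to 2.11) and by 1.73-fold in replicate 2 (1.64 to 1.81). The intervals of the 2 libraries overlapped for the first 2 folds and not for Mir181c over Mir181d.

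Between the copies that hold the same 5p arm, 1 gene had most of the counts, which does not show where the reads of that arm came from. Mir181a-1 exceeded Mir181a-2 by 30.0-fold in replicate 1 (23.4 to 39.0) and by 22.0-fold in replicate 2 (17.1 to 28.9). Mir181b-2 exceeded Mir181b-1 by 36.7-fold in replicate 1 (23.6 to 60.4) and by 34.3-fold in replicate 2 (23.1 to 53.3). These folds are of reads placed in 1 gene, such as those of the 3p arms printed above. They may differ from the folds of the transcripts, and any preference of the method for some sequences, alike in both libraries, is outside the intervals.

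**Figure D3:**
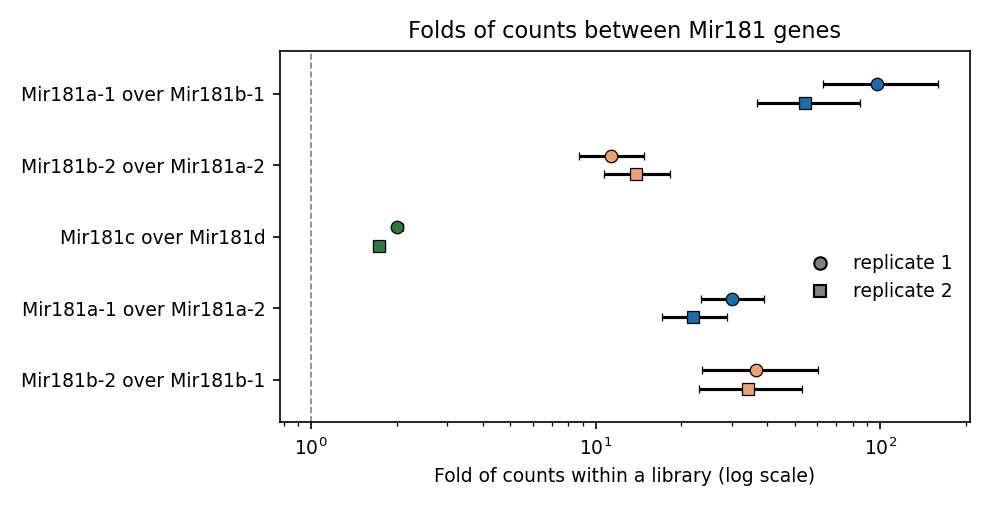
Fold of counts between 2 Mir181 genes within a library on a log axis, with circles for replicate 1, squares for replicate 2, bars for 95% intervals and a dashed line at equal counts. Mir181a-1 over Mir181b-1 and Mir181b-2 over Mir181a-2 both lie right of the line, the first at 97.6 and 54.6, and Mir181c over Mir181d lies nearest to it.

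The 2 libraries differed in some members beyond the counting error of independent reads. A two-sided exact binomial test with Benjamini-Hochberg adjustment over all genes with 10 or more counts compared these libraries, not conditions. It takes each read as independent, which copies made by PCR are not, so its p-values can be too small. It called 3 of the 6 members at an adjusted p under 0.05, beside 44.5% of the 440 genes tested, so the members' share was near that of all genes. Mir181a-1 was 1.23-fold higher in replicate 1 than in replicate 2 (log2 ratio 0.30, counting SE 0.05, exact binomial adjusted p = 1.39e-08). Mir181b-2 was lower in replicate 1 (log2 ratio -0.44, counting SE 0.07, exact binomial adjusted p = 5.21e-09), and so was Mir181d (log2 ratio -0.21, counting SE 0.04, exact binomial adjusted p = 7.34e-07). Of all genes tested, 27.0% were called higher and 17.5% lower in replicate 1, against 1 and 2 of the 6 members.

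Mir181c had a log2 ratio of 0.01 (counting SE 0.03), Mir181a-2 of -0.15 (counting SE 0.26) and Mir181b-1 of -0.53 (counting SE 0.43), and none of these passed the exact binomial test (adjusted p = 0.811, 0.736 and 0.369). The small ratio of Mir181c depended on the scaling. With TMM scaling it was -0.069 (exact binomial adjusted p = 0.0411) and with DESeq2 size factors -0.071 (adjusted p = 0.0361), which turns its sign and brings the members called to 4. Under either scaling the calls over all genes split into 97 higher and 98 lower in replicate 1, compared with 119 higher and 77 lower at equal totals. At equal totals each pair held 1 called member and 1 that was not called, and only for Mir181c over Mir181d did the fold intervals given above not overlap between libraries. The median log2 ratio was -0.18 over the 6 members and 0.08 over all 440 genes tested, whose central 80% ran from -0.55 to 0.70.

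**Figure D4:**
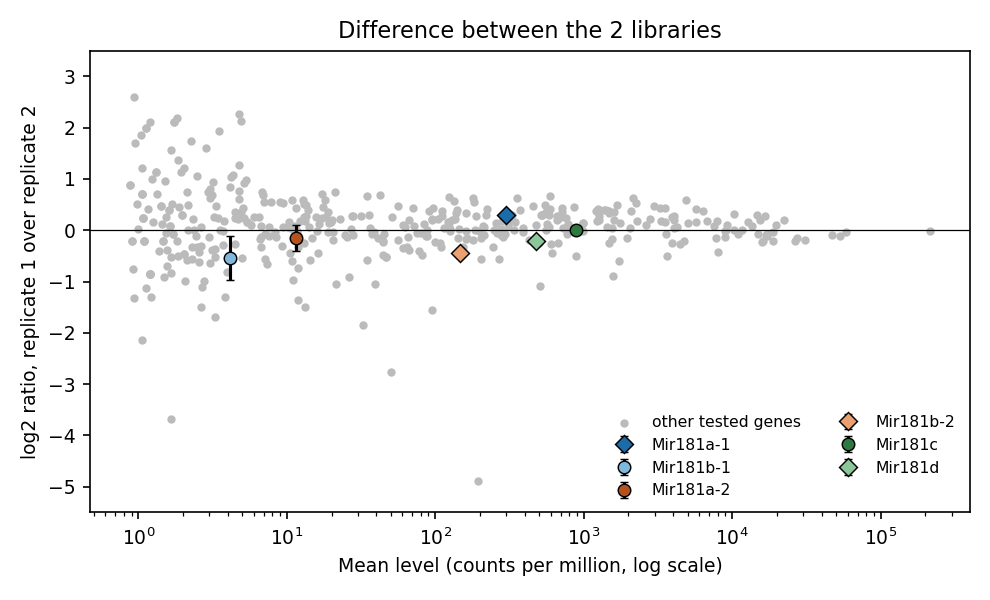
Log2 ratio of replicate 1 over replicate 2 against mean level in CPM on a log axis for the 440 genes tested, with the Mir181 members in colour, diamonds where called by the exact test and circles where not, and bars for 1 counting SE. All 6 members lie between -0.53 and 0.30, inside the band of the other genes.

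Markers of other cells also differed between the libraries. In pooled tissue, fewer cells of a type and less RNA per cell cannot be told apart. Since each pool gave a single library, a difference in handling or library preparation cannot be told apart from these either. The 5 epithelial markers (Mir200a, Mir200b, Mir200c, Mir141 and Mir429) were all called lower in replicate 1, beside 17.5% of all genes tested, and summed to 0.427% of counts in replicate 1 and 0.638% in replicate 2. Neighbouring miRNA genes can share a transcript, so these 5 calls need not be independent, and they were not tested as a set. Of the muscle markers, 2 of 3 with a row reached 1 CPM, with sums of 0.112% in replicate 1 and 0.206% in replicate 2. Of the 2 tested, Mir206 was called lower in replicate 1 (log2 ratio -0.89), beside 17.5% of all genes tested, and Mir133b was not called. None of the 5 neural markers with a row reached 1 CPM. One of them, Mir9-3, had every mature arm also in another listed gene, and reads that match several places are missing from these counts. Low counts here therefore do not show that neural cells were absent. The part of these cells in the Mir181 differences was not tested. Markers of the tissue were present: all 5 hepatocyte markers reached 1 CPM, with sums of 22.0% in replicate 1 and 22.2% in replicate 2. Of these, 4 were called lower in replicate 1, beside 17.5% of all genes tested, and Mir148a was not called. The log2 ratios of those 4 ran from -1.85 for Mir194-1 to -0.0086 for Mir122, so a call at high counts can be a very small shift. The 3 erythroid markers summed to 2.41% in replicate 1 and 2.72% in replicate 2. Mir144 (log2 ratio -0.42) and Mir451a (-0.09) were called lower in replicate 1, and Mir486 (0.66) higher. Among all genes tested, 17.5% were called lower and 27.0% higher. The endothelial marker Mir126a, at 4.55% in replicate 1 and 4.85% in replicate 2, was called lower in replicate 1 (log2 ratio -0.09). Of 5 leukocyte markers with a row, 4 reached 1 CPM, and the 5 summed to 1.77% in replicate 1 and 1.84% in replicate 2. Of the 4 tested, 1 was called lower in replicate 1, Mir223 (log2 ratio -0.06), beside 17.5% of all genes tested. Mir142, a marker of all leukocytes, had no row of its own.

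Beside other miRNAs of lymphocytes and leukocytes, the Mir181 genes spread widely, from a mean of 4.14 CPM for Mir181b-1 to 890 CPM for Mir181c. Of the 8 genes of that list, 7 had a row and 6 reached 1 CPM, and the 7 together held 1.80% of counts in replicate 1 and 1.87% in replicate 2, nearly all of it Mir223, a miRNA of granulocytes and monocytes. Mir342, at 825 CPM in replicate 1 and 789 CPM in replicate 2, was close to the Mir181c level and above that of Mir181d. Mir146, an inhibitor of inflammatory signalling, was at 288 CPM in replicate 1 and 302 CPM in replicate 2, within the range of Mir181a-1. Mir155, a miRNA of activated lymphocytes, was at 83.6 and 90.9 CPM in replicates 1 and 2, and Mir150, of mature lymphocytes, at 23.8 and 25.3 CPM. Both lay below Mir181b-2 and above Mir181a-2 in the 2 libraries. Mir146b, at 1.69 and 1.18 CPM in replicates 1 and 2, and Mir142b, at 0.169 and 0.196 CPM, lay below Mir181b-1. The exact test between libraries called 1 of the 6 list members tested, Mir223, which was lower in replicate 1 (log2 ratio -0.06), beside 44.5% of all genes tested. These are counts per hairpin and not per mature strand, so an order between genes is one of counts.

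Over genes with a mature sequence in the RefSeq table, the order of levels by shared mature arms depended on which rows were counted. The other 1057 rows, Mir122 among them, are left out here. They held 24.2% of counts in replicate 1 and 24.3% in replicate 2. Among rows with a mature sequence, 835 had no arm found in another listed gene, 48 had 1 of 2 arms so found, and 33 had every arm. An arm missing from the RefSeq table as matched here goes unseen, so the class with no shared arm can hold genes that do share one. Of the genes in each class that reached 1 CPM in both libraries, the median level was 96.3 CPM over 311 genes with no shared arm, 20.3 CPM over 37 with 1 of 2 arms shared and 34.9 CPM over 5 with every arm shared. Over all rows of a class the order of the first 2 turned round, with medians of 0.378 CPM with no shared arm, 11.4 CPM with 1 of 2 arms shared and 0 CPM with every arm shared, since 37.2%, 77.1% and 15.2% of their rows reached 1 CPM. Mir181c and Mir181d belong to the first class, at ranks 81 and 104 of its 835 rows. The other 4 members belong to the class with 1 of 2 arms shared, where Mir181a-1 was rank 5, Mir181b-2 rank 8, Mir181a-2 rank 24 and Mir181b-1 rank 32 of 48. The highest gene of that class was Mir16-1, a copy of the miR-16 gene, at 3567 ± 114 CPM (SD, n = 2). Whether sharing itself changes a count was not tested.

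**Figure D5:**
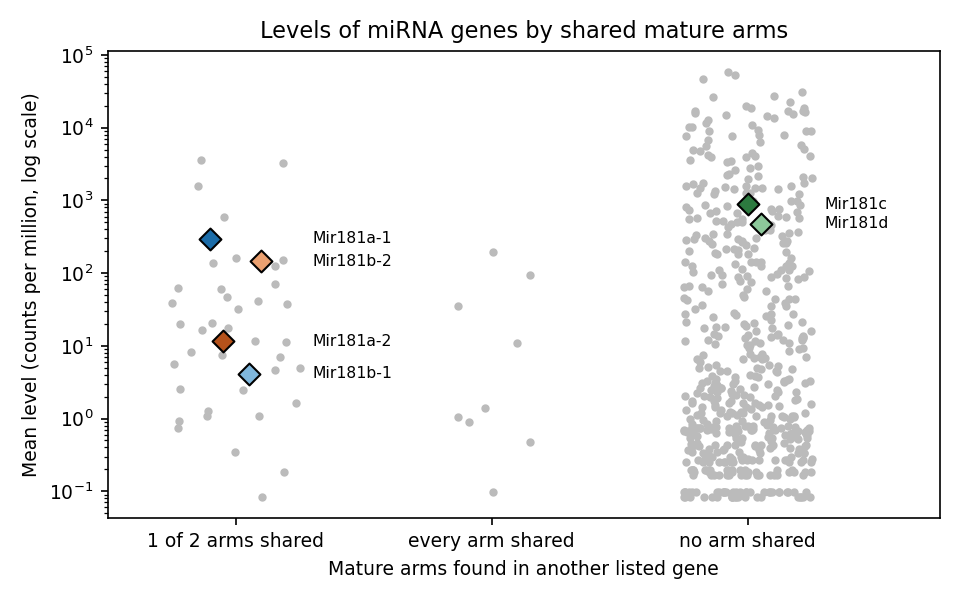
Mean level in CPM on a log axis for genes with a count and a mature sequence, by whether their mature arms are found in another listed gene, with Mir181 members as coloured diamonds and other genes as grey points spread sideways for view. Mir181a-1 (rank 5) and Mir181b-2 (rank 8) stand high among the 48 genes with 1 of 2 arms shared, and Mir181c and Mir181d lie among genes with no arm shared.

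The genes most like Mir181c in level, by distance of log2(CPM + 0.5) over the 2 libraries, were Mir27b (distance 0.06), Mir188 (0.10) and Mirlet7b (0.18). With 2 libraries of 1 group, this likeness is one of level only. Mir27b was at 876 CPM in replicate 1 and 858 CPM in replicate 2.

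Within 100 kb of the members, other listed miRNA genes were found on chromosome 8 only, all on the strand opposite to Mir181c and Mir181d. The Mir23a, Mir27a and Mir24-2 cluster, whose transcript is known in blood cell development, begins 29556 bases from Mir181c. Mir23a was at 13604 CPM in replicate 1 and 12117 CPM in replicate 2, above Mir181c in both libraries. Mir27a, at 218 and 209 CPM in replicates 1 and 2, and Mir24-2, at 215 and 204 CPM, lay below Mir181d. This is an order of gene counts, without the reads that match several places. Mir709 and Gm25110, the other 2 genes in that window, had 0 counts in both libraries.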

How the data were processed

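Raw counts per gene were deposited by the authors for each library of total RNA, irrespective of strand and for each strand. Per the deposited text description, the assembly is mm10 and the annotation GENCODE M4. The aligner, the counter and molecular identifiers are not stated: not given in the sources used here. The stranded column with the larger total was taken as sense, and 4 tally rows were left out: multimapping reads (28.1% and 28.2% of reads in replicates 1 and 2), unmapped reads (21.8% and 21.2%), reads outside genes and ambiguous reads. Replicate numbers come from the labels.

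Names and coordinates came from GENCODE M21 by versionless identifier (1894 of 1973 rows), and sequences from RefSeq, GRCm38.p6, by symbol (916 rows with a mature sequence, 869 with a hairpin). CPM are over each sense total, so that a single count equals 0.169 CPM in the first library and 0.196 CPM in the second. Since 1 group has no contrast, edgeR's quasi-likelihood test was not fitted. Genes with 10 or more counts over both libraries were tested across all genes with an exact conditional binomial test (scipy 1.17.1), Benjamini-Hochberg adjusted at 0.05. A check beforehand used counts simulated with counting (Poisson) error only, the error that the test assumes. It therefore does not show how often the test calls genes through other spread between libraries. Log2 ratios had 0.5 added to each count. Scaling alternatives used TMM (edgeR 4.0.16) and DESeq2 1.42.0 size factors.

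The rule for members uses names only, but members and lists were chosen with earlier results of these data known. Genes named are the members, the 3 rows nearest to the highest member, the most abundant gene, miRNA rows within 100 kb, members of the lymphoid and leukocyte, progenitor and cell type marker lists, and Mir16-1, which was chosen after its value was seen.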

Additional observations from a re-analysis of the deposited data

How the results depend on the processing

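Depth limits Mir181b-1 (20 and 25 counts) and Mir181a-2 (65 and 62 counts), where counting SEs of the log2 ratio were 0.43 and 0.26. Counts irrespective of strand gave a family share of 0.168%, Mir181c at 818 CPM and Mir181a-2 at 10.6 CPM, because the total is larger. With Mir122 left out of the total, the family held 0.233%, and levels were 1133 CPM for Mir181c, 610 for Mir181d, 379 for Mir181a-1, 186 for Mir181b-2, 14.7 for Mir181a-2 and 5.26 for Mir181b-1. The log2 ratio of Mir181c turned to -0.069 with TMM and -0.071 with DESeq2 size factors, where 4 members were called. The family share was not computed under either of these scalings. At a detection minimum of 10 CPM, 24 genes with 1 of 2 arms shared and 3 with every arm shared were detected, and class medians were 362 CPM with no shared arm, 61.6 with 1 of 2 and 95.1 with every arm shared. Taking 1 library alone, the family share was 0.181% to 0.185%, and the fold of Mir181a-1 over Mir181b-1 54.6 to 97.6. The 3 members called stayed called under all 7 alternatives to that test, with exact binomial adjusted p up to 6.74e-05 for Mir181a-1, 8.38e-09 for Mir181b-2 and 1.18e-06 for Mir181d. The other levels, shares and folds kept their value within the spread between libraries, and the other counts of genes stayed within 1.5 times. With 2 libraries, the value of either alone always lies within 1 SD of their mean, so taking 1 library alone could not fail this rule. Percentages of shared words have no spread between libraries. Over the duplicated genes they ran from 16.0% to 22.6% with words of 15 bases and from 8.70% to 14.3% with words of 21 bases. Mir181d stayed at 0% with both. Mir181b-1 was not tested at a minimum of 50 counts. No paired analysis was possible because there is 1 group.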

Other observations

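The list of miRNAs of blood progenitors and vessels held more counts than the Mir181 family. Of its 12 genes, 11 had a row and all 11 reached 1 CPM in both libraries, with a summed share of 8.86% in replicate 1 and 9.05% in replicate 2. Mir126a, an endothelial and stem cell miRNA, gave 4.55% and 4.85% in replicates 1 and 2. Between the libraries, the exact binomial test called 4 of the 11 higher and 4 lower in replicate 1, beside 27.0% of all genes tested called higher and 17.5% called lower. Mir99b was higher (6492 CPM in replicate 1 and 4836 CPM in replicate 2; log2 ratio 0.42) and Mir130a lower (16428 CPM in replicate 1 and 17800 CPM in replicate 2; log2 ratio -0.12). Mir221 (318 and 298 CPM in replicates 1 and 2), which restrains the receptor Kit in blood progenitors, lay near Mir181a-1 in level and was not called.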
